A study of Mus musculus with 6 samples.

Results

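The E2F family genes other than E2f6 were followed here across an inducible knockdown of Pcgf6 in mouse embryonic stem cells. The members are defined by gene family: E2f1, E2f2, E2f3, E2f4, E2f5, E2f7, E2f8 and the dimerisation partner gene Tfdp2, 8 of 19938 genes that had at least 1 probe set assigned to them alone. A gene with several probe sets was read from its brightest, by the mean of the 6 arrays. All 8 were measured and tested, with no filter on level.

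All samples were V6.5 mouse embryonic stem cells, grown on mitomycin C-inactivated DR4 embryo fibroblasts in medium with serum and leukemia inhibitory factor. The cells carried shRNA1 or shRNA2, taken as hairpins against Pcgf6 from the sample titles, or a Scrambled hairpin as control. Each of the 3 lines was measured on 1 GeneChip Mouse Gene 1.0 ST array with doxycycline (dox, 1 µg/ml, which switches the hairpin on) and on 1 array without it, 6 arrays in all, and both arrays of a line are called a pair. The sources used here do not state how long dox was given, or whether a line is 1 clone or a pool. The labels name no separate cultures, and the p-values therefore reflect only how far these samples lie apart, which may be technical.

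E2F proteins are transcription factors that bind the promoters of genes for DNA replication and the cell cycle. E2F1 to E2F6 bind DNA as dimers with a DP protein, of which Tfdp1 and Tfdp2 encode the main forms, while the atypical E2F7 and E2F8 bind without DP and repress. E2F1, E2F2 and E2F3 are known mainly as activators that the retinoblastoma protein holds in check, and E2F4 and E2F5 mainly as partners of the related pocket proteins in repression. E2F6 lacks the pocket-protein binding region and is, with PCGF6, a subunit of the repressive complex PRC1.6, which is why its relatives are of interest beside a Pcgf6 knockdown. In embryonic stem cells the retinoblastoma brake is weak, and E2F target genes are transcribed through most of the cell cycle.

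E2F genes are themselves known to carry E2F sites at their promoters, so the start regions of the members were searched for the E2F core sites TTTGGCGC, TTTCGCGC and TTTCCCGC on both strands. RefSeq windows of GRCm38.p6, each about 250 bases before and 50 after a transcript start, were found for 6 of the 8 members, 9 windows in all. E2f4 and E2f5 had none in the table. A site was present in 3 windows, which are those at the outermost start of E2f2, E2f3 and E2f7, and in 0 of the 6 windows at starts inside a gene. E2f1, E2f8 and Tfdp2 had windows only at inner starts, 465 bases inside the gene for E2f1, 476 for E2f8, and 62459 and 63002 for Tfdp2. Their outermost starts were therefore not searched, and whether those hold a site is not known from these windows. Any of the 3 motifs was present in 1.84% of 32851 windows of all genes, TTTGGCGC in 0.514%, TTTCGCGC in 0.323% and TTTCCCGC in 1.07%. In E2f2 the motif TTTGGCGC lay 40 to 47 bases into the transcript. The bases ahead of the start of E2f3 and E2f7 are shown because their site lies there, with the match to TTTCCCGC, which reads GCGGGAAA on the gene's strand, in capitals. In E2f3 (chr13:29986065-29986313, minus strand) it lies 10 to 3 bases before the start, and in E2f7 (chr10:110745189-110745438, plus strand) 198 to 191 bases before it.
E2f3: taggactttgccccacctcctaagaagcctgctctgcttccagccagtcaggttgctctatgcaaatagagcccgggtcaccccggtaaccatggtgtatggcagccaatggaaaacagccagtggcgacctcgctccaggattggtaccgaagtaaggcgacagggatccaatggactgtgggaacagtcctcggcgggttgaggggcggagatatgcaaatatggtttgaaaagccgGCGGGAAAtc
E2f7: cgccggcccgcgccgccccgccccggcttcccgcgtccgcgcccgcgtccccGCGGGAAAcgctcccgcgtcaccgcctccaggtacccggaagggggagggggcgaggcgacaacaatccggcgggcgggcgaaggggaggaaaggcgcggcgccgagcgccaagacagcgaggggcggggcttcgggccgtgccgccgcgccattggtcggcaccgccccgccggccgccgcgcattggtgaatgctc
A match describes the letters only, and no binding was measured in these samples.

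Values are log2 expression as deposited. RMA as usually run brings arrays to a common distribution, so a shift shared by most genes would not show, and the number of arrays limits the precision. Pcgf6, the target, fell with the induced hairpins and averaged 9.33 ± 0.09 (SD, n = 2) with dox and 11.63 ± 0.10 (SD, n = 2) without, a limma change of -2.30 (SE 0.10, adjusted p = 0.000846). Levels of 10 stem cell markers averaged between 11.81 and 12.06 on the 6 arrays, so the labelled cell type showed its markers everywhere. The 20 listed markers of feeder fibroblasts, some of them dim (Fap averaged 5.16), had list means of 9.84 (dox) and 9.84 (no dox) in the shRNA1 line, 10.20 (dox) and 9.76 (no dox) in the shRNA2 line, and 9.50 (dox) and 8.94 (no dox) in the scrambled line. In such bulk samples, fewer cells of a type and less RNA per cell cannot be told apart.

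None of the 8 members passed the test for a change with dox in the cells with a Pcgf6 hairpin. Their changes over both hairpins ran from -0.24 for E2f2 to 0.04 for E2f1 on the log2 scale. By limma, 0 of 8 passed an adjusted p of 0.05, where 0.201% of all genes did, and 0 of 8 had an unadjusted p under 0.05, where 8.75% of all genes did. The 95% intervals of all 8 held 0 and all 8 lay within 1.5-fold (0.58 on the log2 scale), the lowest bound being -0.48 and the highest 0.27. The median absolute change of the members was 0.10, against 0.09 over all genes. These intervals use 2 residual degrees of freedom plus 4.44 borrowed from all genes.

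**Figure D1:**
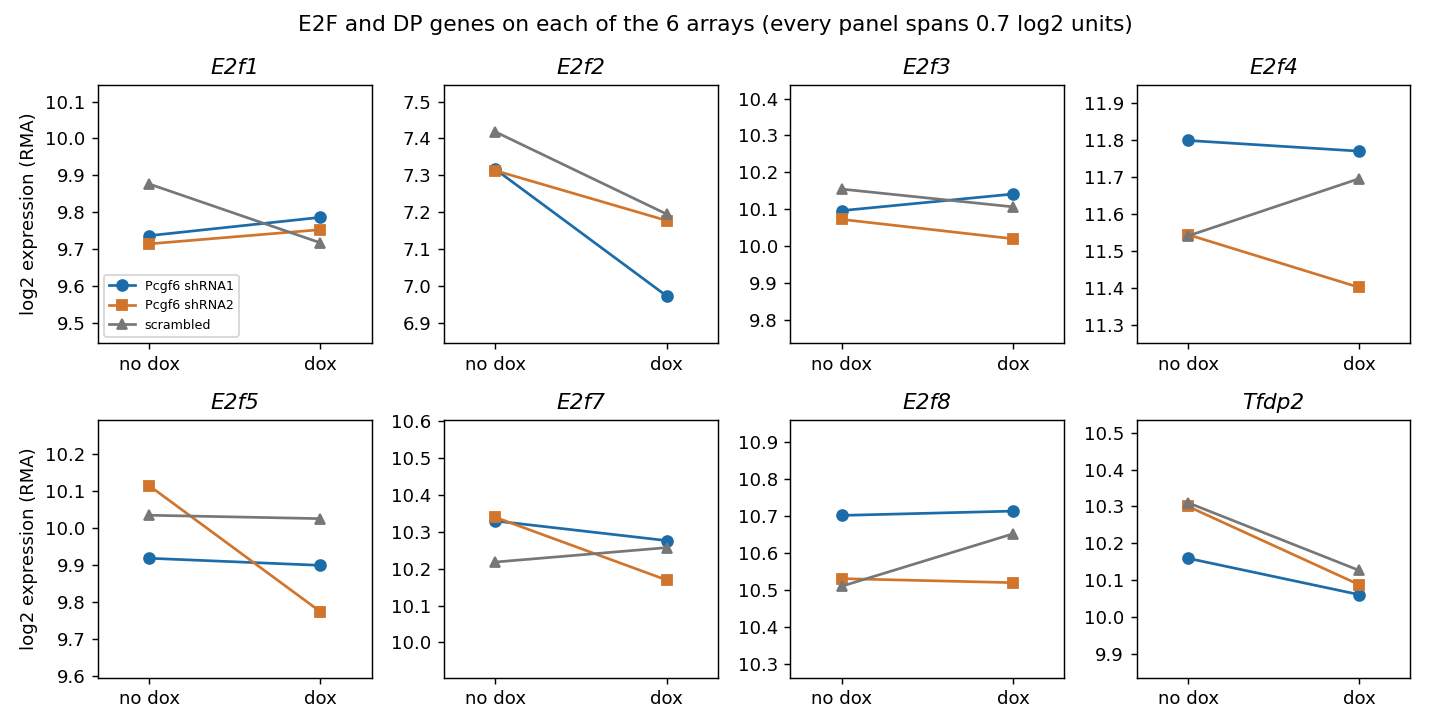
Log2 expression of the 8 genes without dox (left) and with dox (right) in each panel, 1 point per array, with a line joining both arrays of 1 cell line. Every panel spans the same 0.7 log2 units, so slopes can be compared. The widest range over the 6 arrays is 0.45, for E2f2, and the narrowest 0.13, for E2f3.

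Of the activators, E2f1 differed little between the arrays of the hairpin lines. The E2f1 level (probe set 10488785) was 9.79 (dox) and 9.74 (no dox) in the shRNA1 line, 9.75 (dox) and 9.71 (no dox) in the shRNA2 line, and 9.72 (dox) and 9.88 (no dox) in the scrambled line. Both induced hairpin arrays thus lay above both uninduced ones by a small margin, and the highest array was uninduced scrambled. The difference was 0.04 (SE 0.08, 95% interval -0.16 to 0.24, limma adjusted p = 0.923), or 0.027 without the induced shRNA1 array.

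E2f2, the activator best known from blood cells, had the lowest mean change of the 8. It was also the dimmest of them, averaging 7.23, where the median gene of each array lay between 7.52 and 7.58. It measured 6.97 (dox) and 7.32 (no dox) in the shRNA1 line, 7.18 (dox) and 7.31 (no dox) in the shRNA2 line, and 7.19 (dox) and 7.42 (no dox) in the scrambled line. All 3 lines were lower with dox, and the pairs differed by -0.34, -0.14 and -0.22 in that order. The same sign in all 3 pairs, in either direction, was seen in 33.6% of all genes. Both induced hairpin arrays lay below both uninduced ones, as they did for 21.8% of all genes. The change over both hairpins was -0.24 (SE 0.10, 95% interval -0.48 to 0.0012, limma adjusted p = 0.574), or -0.14 without the induced shRNA1 array. The response of the hairpins differed from that of the scrambled pair by -0.02 (SE 0.17, 95% interval -0.43 to 0.40, adjusted p = 0.999), a value that turned positive under 3 of 11 alternatives tried for it, among them 0.086 without the induced shRNA1 array.

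E2f3, which encodes an activator in a longer form and a shorter form made from a start within the gene, was the flattest. It measured 10.14 (dox) and 10.10 (no dox) in the shRNA1 line, 10.02 (dox) and 10.07 (no dox) in the shRNA2 line, and 10.11 (dox) and 10.15 (no dox) in the scrambled line. The induced and uninduced hairpin arrays overlapped, and the change was -0.004 (SE 0.09, 95% interval -0.22 to 0.21, limma adjusted p = 0.994). A second, dimmer probe set of E2f3 (10408475) read between 8.58 and 8.87, and its pairs differed by 0.06, 0.05 and 0.17 for shRNA1, shRNA2 and scrambled. The sign of the E2f3 change therefore depends on the probe set, and the groups overlapped on both.

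Of the E2Fs that work mainly with pocket proteins in repression, E2f4 differed between the shRNA1 and shRNA2 lines by more than with dox in any line, although the uninduced scrambled and shRNA2 arrays both read 11.54. Its level was 11.77 (dox) and 11.80 (no dox) in the shRNA1 line, 11.40 (dox) and 11.54 (no dox) in the shRNA2 line, and 11.70 (dox) and 11.54 (no dox) in the scrambled line. shRNA1 cells were higher than shRNA2 cells by 0.37 with dox and by 0.26 without, whereas dox accompanied differences of -0.03, -0.14 and 0.16 in the shRNA1, shRNA2 and scrambled pairs. Over both hairpins the change was -0.09 (SE 0.15, 95% interval -0.45 to 0.27, limma adjusted p = 0.915), with the widest interval of the 8. The fit did not pair the arrays of a line, so the gap between the shRNA1 and shRNA2 lines also entered this SE. The change was 0.10 without the induced shRNA2 array and 0.04 without the uninduced shRNA1 array. Leaving out a hairpin array also brings that gap into the value. Within each of these lines E2f4 was lower with dox.

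E2f5 differed with dox mainly in the shRNA2 pair. It measured 9.90 (dox) and 9.92 (no dox) in the shRNA1 line, 9.77 (dox) and 10.12 (no dox) in the shRNA2 line, and 10.03 (dox) and 10.04 (no dox) in the scrambled line. The shRNA2 arrays were both the lowest and the highest of the 6, a difference of -0.34 from 1 array against 1, against -0.02 under shRNA1 and -0.01 in the scrambled pair. The mean over both hairpins was -0.18 (SE 0.10, 95% interval -0.43 to 0.07, limma adjusted p = 0.675). It was -0.28 without the uninduced shRNA1 array, -0.082 without the uninduced shRNA2 array and -0.12 without the induced one. The feeder markers had median changes of -0.02 in the shRNA1 pair, 0.46 in the shRNA2 pair and 0.60 in the scrambled pair. The part of feeder RNA in the E2f5 value was not tested.

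The atypical repressors came next. E2f7 measured 10.28 (dox) and 10.33 (no dox) in the shRNA1 line, 10.17 (dox) and 10.34 (no dox) in the shRNA2 line, and 10.26 (dox) and 10.22 (no dox) in the scrambled line. Both induced hairpin arrays were below both uninduced ones and the scrambled pair differed by 0.04 the other way, but the change of -0.11 (SE 0.09, 95% interval -0.32 to 0.10) did not pass (limma adjusted p = 0.765), and it was -0.058 without the induced shRNA2 array. The difference between the responses of the hairpins and of scrambled was -0.15 (SE 0.15, 95% interval -0.52 to 0.21, adjusted p = 0.999), or -0.097 without that array.

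E2f8 is the closest relative of E2f7. It measured 10.71 (dox) and 10.70 (no dox) in the shRNA1 line, 10.52 (dox) and 10.53 (no dox) in the shRNA2 line, and 10.65 (dox) and 10.51 (no dox) in the scrambled line. shRNA1 cells were higher than shRNA2 cells by 0.19 with dox and 0.17 without, while the dox pairs differed by 0.01 (shRNA1), -0.01 (shRNA2) and 0.14 (scrambled). Both scrambled arrays lay below both shRNA1 arrays and on either side of the shRNA2 arrays. The change over both hairpins was 0.0004 (SE 0.11, 95% interval -0.26 to 0.26, limma adjusted p close to 1).

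Tfdp2, the DP partner that lets typical E2Fs bind DNA, was lower with dox in all 3 lines. Tfdp2 measured 10.06 (dox) and 10.16 (no dox) in the shRNA1 line, 10.09 (dox) and 10.30 (no dox) in the shRNA2 line, and 10.13 (dox) and 10.31 (no dox) in the scrambled line. The 3 induced arrays were thus the 3 lowest, the scrambled one included, with pair differences of -0.10, -0.21 and -0.18. One sign in all 3 pairs was seen in 3 of 8 members (E2f2, E2f5 and Tfdp2) and, in either direction, in 33.6% of all genes. The change over both hairpins was -0.16 (SE 0.09, 95% interval -0.38 to 0.06, limma adjusted p = 0.678), and it was -0.085 without the uninduced shRNA2 array. The hairpins differed from scrambled by 0.03 (SE 0.16, 95% interval -0.35 to 0.41).

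**Figure D2:**
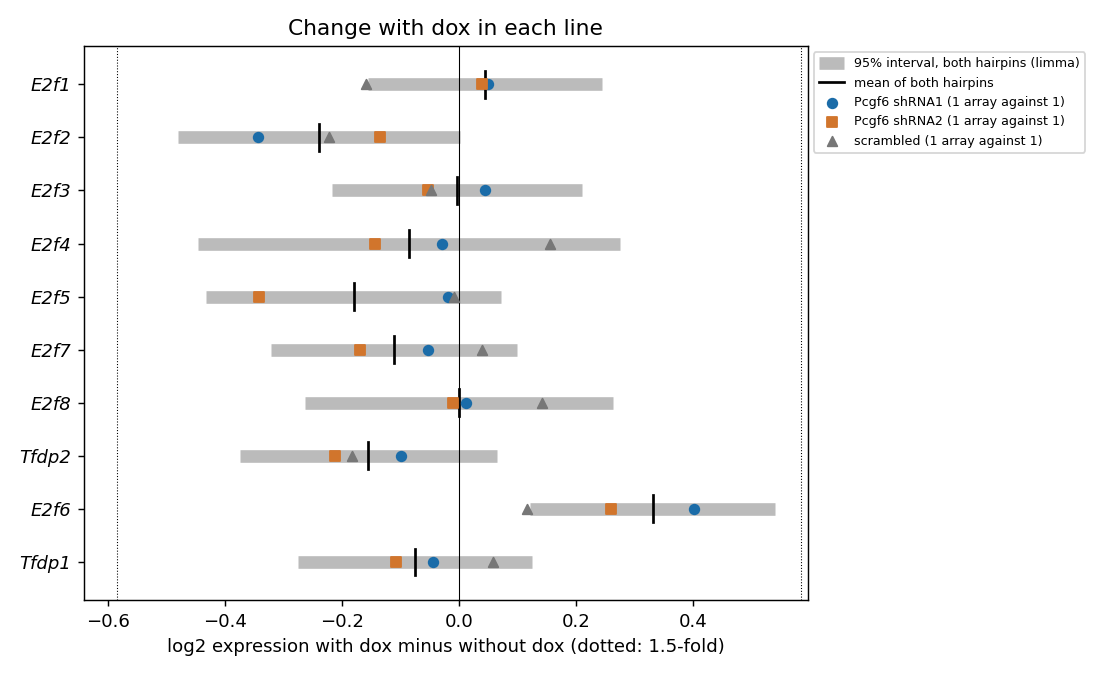
Log2 expression with dox minus without dox for the 8 members and, for reference, E2f6 and Tfdp1; points are single pairs of arrays, black ticks the mean of both hairpins and grey bars its 95% interval from limma. All 8 members' bars hold 0 and stay inside the dotted lines at 1.5-fold, and the bar of E2f6 runs from 0.12 to 0.54.

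Pair by pair, 0 of 8 members passed 1.5-fold in any line, where 0.868% of all genes did under shRNA1 (0.627% upward), 2.61% under shRNA2 (2.17% upward) and 1.7% in the scrambled pair (1.48% upward), each from 1 array against 1. With dox, 5 of 8 members were lower under shRNA1, 7 under shRNA2 and 5 in the scrambled pair. Of all genes 49.6%, 54.2% and 53.4% were lower and 50.4%, 45.8% and 46.5% higher. The 7 under shRNA2 became 5 when each array was centred on the median of its probe sets, as E2f3 and E2f8 turned to 0.0084 and 0.05. The count stayed at 7 with quantile normalization and with centring on the median of genes. Among the hairpin groups, 4 members (E2f2, E2f5, E2f7, Tfdp2) had both induced arrays below both uninduced arrays, where 21.8% of all genes did. E2f1 had them above, as did 17.9% of all genes, and 3 overlapped.

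The next comparison set the dox response of both Pcgf6 hairpin lines against that of the scrambled line, to tell a hairpin's response from that to dox itself. By limma 0 of 8 members passed, where 0.0702% of all genes did, and 0 of 8 had an unadjusted p under 0.05, where 4.55% of all genes did. The differences ran from -0.24 for E2f4 (SE 0.26) to 0.20 for E2f1 (SE 0.14). The E2f4 value moved with 1 hairpin array left out, a step that also brings in the difference between the shRNA1 and shRNA2 lines. It was -0.43 without the induced and -0.11 without the uninduced shRNA1 array. It was -0.056 without the induced and -0.37 without the uninduced shRNA2 array. E2f1 was higher with dox under both hairpins and lower by 0.16 in the scrambled pair, E2f4 and E2f7 the reverse. Such opposite signs were seen in 3 of 8 members and in 23.4% of all genes. The 95% intervals of all 8 held 0, and 5 lay within 1.5-fold; the lowest bound was -0.87, for E2f4. The scrambled pair has no replicate, so its spread was taken from the hairpin groups. In this comparison the 20 feeder markers had a median difference of -0.32, and 1 of them was positive. How far feeder RNA enters the members' differences was not tested.

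Before induction the lines could differ on their own, so uninduced hairpin cells were set against uninduced scrambled cells. None of the 8 members passed by limma, where 0% of all genes did, and 0 of 8 had an unadjusted p under 0.05, where 8.06% of all genes did. E2f1 measured -0.15 (SE 0.10, adjusted p = 0.783) and E2f4 0.13 (SE 0.18, adjusted p = 0.917), the lowest and the highest value. Without the uninduced shRNA1 array E2f4 measured 0.0035 and E2f7, at 0.12, was highest, and without the uninduced shRNA2 array E2f4 measured 0.26. Both uninduced hairpin arrays lay below the scrambled array for E2f1, E2f2, E2f3 and Tfdp2 and above it for E2f4, E2f7 and E2f8, where 34.1% and 33.4% of all genes did so. The 20 feeder markers were all higher in these hairpin cells, with a median difference of 0.82, against -0.0005 over all genes. The part of feeder RNA in the members' values was not tested.

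Across the lines, E2f3, E2f4 and E2f8 were higher in both arrays of shRNA1 than in both of shRNA2, where 16.5% of all genes were. Compared at the same dox state, the smaller difference was 0.02 for E2f3, 0.17 for E2f8 and 0.26 for E2f4. No member was lower in both, where 16.9% of all genes were. Each line was measured once per state, so line and array cannot be told apart.

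E2f6 and Tfdp1 complete the family. E2f6 measured 10.07 (dox) and 9.67 (no dox) in the shRNA1 line, 10.00 (dox) and 9.74 (no dox) in the shRNA2 line, and 9.60 (dox) and 9.48 (no dox) in the scrambled line. Its change of 0.33 (SE 0.09, 95% interval 0.12 to 0.54) had an unadjusted limma p of 0.00774 and did not pass over all genes (adjusted p = 0.406). Its difference from the scrambled response was 0.21 (SE 0.15, 95% interval -0.15 to 0.58, limma adjusted p = 0.999), an interval that holds 0. Tfdp1, the other DP gene, measured -0.08 (SE 0.08, adjusted p = 0.843), and its second probe set differed by 0.02, -0.04 and -0.04 in the shRNA1, shRNA2 and scrambled pairs.

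The genes around the family were described from 3 lists. Of the pocket proteins, DREAM and MuvB subunits and E2F partners, 14 of 14 listed genes were measured and 0 rose or fell by limma. Their median change was -0.05, against -0.01 over all genes. Besides E2f6, the highest was Rbl2 (p130, the pocket protein of resting cells) at 0.10 (SE 0.14), with 0.36 in the scrambled pair. The lowest were Rbbp4, a histone-binding subunit of MuvB and of other chromatin complexes, at -0.17 (SE 0.08) and Ccnf, which encodes cyclin F, at -0.14 (SE 0.11).

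Of the S-phase E2F targets, 34 of 36 listed genes were measured, and 0 rose, 0 fell and 34 did not pass. At an unadjusted limma p under 0.05 the count was 6 of 34, all lower, against 8.75% of all genes in either direction. For the difference from the scrambled response it was 0 of 34, against 4.55% of all genes, with a median of -0.05 and 11 positive. Their median change was -0.14 over both hairpins, while the single pairs gave -0.04 (shRNA1), -0.21 (shRNA2) and -0.06 (scrambled), where the medians of all genes were 0.00, -0.02 and -0.01. With dox 25 of 34 were lower under shRNA1, 31 under shRNA2 and 28 in the scrambled pair. In the same pairs 49.6%, 54.2% and 53.4% of all genes were lower. Centring on the probe set median moved the shRNA2 median to -0.15 and its count to 27, while the shRNA2 median of all genes moved to 0.04. With quantile normalization the shRNA2 median of the list was -0.19 and its count 30. Centring on the median of genes gave -0.24 and 32. The lowest were Cdc6, which loads the replicative helicase, at -0.30 (SE 0.12, adjusted p = 0.564) and Gins2, a subunit of that helicase, at -0.29 (SE 0.09, adjusted p = 0.495). Cdc6 differed by -0.11, -0.49 and 0.05 in the shRNA1, shRNA2 and scrambled pairs, and Gins2 by -0.20, -0.37 and -0.24. The highest were Cdc45, which activates the helicase, at 0.06 (SE 0.10) and Pcna, the sliding clamp, at 0.03 (SE 0.09). Averaged over the list, levels were 10.98 (dox) and 11.02 (no dox) in the shRNA1 line, 10.91 (dox) and 11.11 (no dox) in the shRNA2 line, and 10.99 (dox) and 11.06 (no dox) in the scrambled line.

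With dox 8 of 20 feeder markers were higher under shRNA1 (median -0.02), 19 under shRNA2 (median 0.46) and 19 in the scrambled pair (median 0.60). In these pairs 50.4%, 45.8% and 46.5% of all genes were higher. The shRNA2 pair thus had the lowest S-phase median and a raised feeder median, while the scrambled pair had the highest feeder median with an S-phase median of -0.06. The part of feeder RNA in the S-phase values was not tested.

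Of the genes of G2 and mitosis, many of them bound by the same DREAM complex, 18 of 19 were measured and 0 rose or fell, with a median change of -0.04. Nusap1, a spindle protein gene, was lowest at -0.24 (SE 0.10, adjusted p = 0.558) with -0.26 in the scrambled pair, followed by the kinesin gene Kif11 at -0.12 (SE 0.08). The highest were Cdc25c, a phosphatase of mitotic entry, at 0.04 (SE 0.09) and Kif20a at 0.02 (SE 0.08). Medians were -0.01, -0.10 and -0.07 in the shRNA1, shRNA2 and scrambled pairs.

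**Figure D3:**
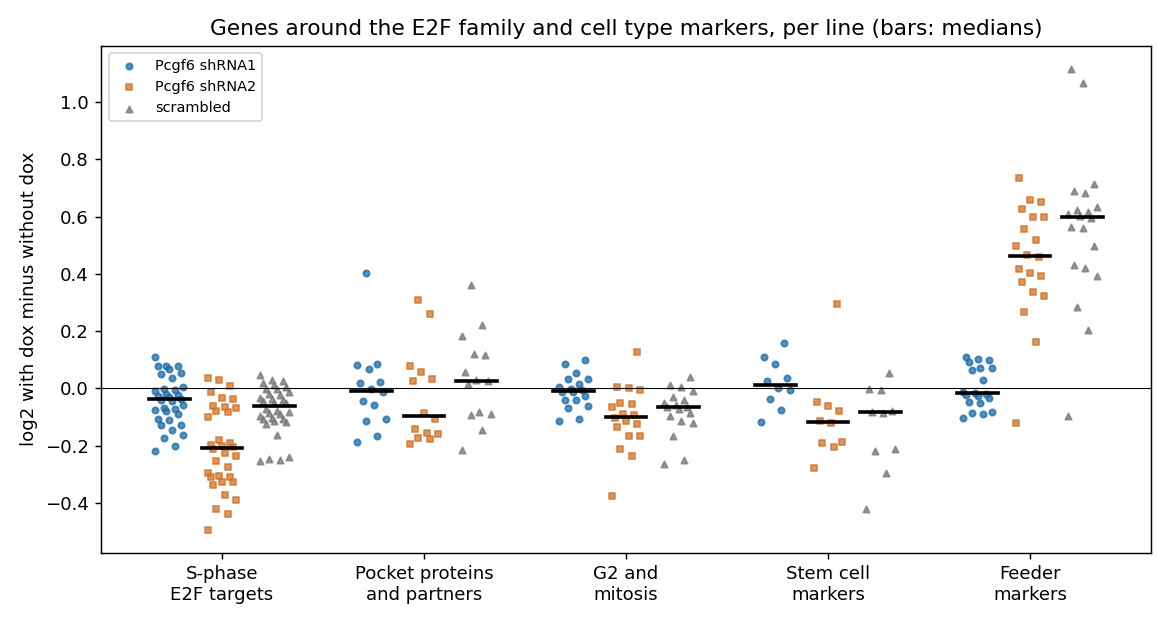
Log2 expression with dox minus without dox for each measured gene of 5 lists, in the shRNA1, shRNA2 and scrambled pairs; each point is a gene from 1 array against 1, and black bars are medians. The S-phase bars lie at -0.04, -0.21 and -0.06 and the feeder bars at -0.02, 0.46 and 0.60.

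The genes most like a member in pattern were sought for the 2 members that varied most over the 6 arrays, E2f4 (SD 0.16) and E2f2 (SD 0.15). Likeness was the root mean square difference between log2 values, each gene centred on its own mean over the 6 arrays. Of 18703 genes, Epop (0.03), Chrna9 (0.03) and Olfr372 (0.04) were nearest to E2f4, where the median gene lay at 0.17. Prr33 (0.02), Khk (0.03) and Mthfd1l (0.03) were nearest to E2f2, where the median gene lay at 0.16. Khk, which encodes ketohexokinase, differed with dox by -0.28, -0.18 and -0.25 in the shRNA1, shRNA2 and scrambled pairs. Epop differed by 0.01, -0.15 and 0.14, where E2f4 differed by -0.03, -0.14 and 0.16. These genes were picked for likeness on the same 6 arrays, so a shared pattern follows from the choice. Likeness over 6 arrays from 3 lines is given as a description only.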

How the data were processed

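RNA from 6 samples was read on 1-colour Affymetrix arrays. The deposited values are log2 expression per probe set. Per the submitters' processing notes, RMA and Affymetrix Power Tools were used; their versions are not given in the sources used here. Values ran from 2.28 to 14.27. The platform annotation, which can be old, gave a single symbol to 21789 of 35556 probe sets and several to 1621, which left 19938 genes, 999 of them with several probe sets. Correlations between arrays across genes lay between 0.990 and 0.997.

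From these log2 values limma 3.58.1 in R 4.3.3 fitted 1 mean per group (induced hairpins n = 2, uninduced hairpins n = 2, induced and uninduced scrambled n = 1 each) over all 6 arrays. The two-sided p-values were Benjamini-Hochberg adjusted over all genes, with a threshold of 0.05. SE and 95% intervals are limma's moderated ones. The code was tested on simulated data. The members and lists were chosen with earlier results of these data known. Named genes are all members, Pcgf6, E2f6, Tfdp1, and the 2 highest and 2 lowest of each list by mean change. The hairpin number pairs arrays of the same line (correlation of deviations 0.181), and a block on the line was an alternative, with quantile normalization, median centring, filters on dim genes, an intensity trend, the mean of all probe sets and single arrays left out. A few listed genes, and proteins, were not analysed here.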

Additional observations from a re-analysis of the deposited data

How the results depend on the processing

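The count of members called stayed at 0 in each comparison under every alternative that could be fitted, and so did the counts of the 3 lists for dox in the hairpin lines; no such count could be had for uninduced lines with the line as a block. Adding the replicate block called 0 of 8 members, and it moved the count over all genes to 23 from 14 for the difference from scrambled. That count was 4 with centring on the probe set median, 22 with centring on the median of genes (added after seeing the data), 9 when the dimmest 25% of genes were dropped, 4 when 50% were, and between 0 and 4 with any 1 hairpin array left out. For dox in the hairpin lines the count over all genes was 40, and it was 7 without the dimmest 50% (where E2f2 is filtered out), 62 with an intensity trend and between 14 and 26 with any 1 hairpin array left out.

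Among the members' values over both hairpins, none of them called, the signs that turned were these. For dox in the hairpin lines, E2f8 measured -0.0023 with quantile normalization and -0.020 with gene median centring, and E2f3 0.021 with probe set median centring and 0.027 as the mean of its probe sets. With 1 hairpin array left out, E2f3 ran from -0.064 to 0.057, E2f4 from -0.27 to 0.10 and E2f8 from -0.10 to 0.10. For the difference from scrambled, E2f2 measured 0.032 with quantile normalization and 0.022 with probe set median centring, and E2f3 -0.035 as the mean of its probe sets. With 1 array left out, E2f2 ran from -0.12 to 0.086, E2f3 from -0.016 to 0.10 and Tfdp2 from -0.042 to 0.10. For uninduced lines, E2f3 measured 0.038 as the mean of its probe sets, and E2f5 ran from -0.12 to 0.080. In the dox comparisons with 1 hairpin array left out, 1 dox state holds 1 line and the other both. Differences between the lines therefore also enter those values. The shRNA1 minus shRNA2 difference with and without dox was 0.37 and 0.26 for E2f4, and 0.19 and 0.17 for E2f8. Within the shRNA1 and shRNA2 lines, dox differences were -0.03 and -0.14 for E2f4, and 0.01 and -0.01 for E2f8. Beyond this, the cause was not tested. With 1 array left out, the lone array of a group was taken to vary like the others.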

Other observations

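Among 16 markers of differentiated cells of the early embryo, 0 passed by limma, and the highest were the keratin genes Krt8 at 0.58 (SE 0.10, adjusted p = 0.172) and Krt18 at 0.56 (SE 0.12, adjusted p = 0.306), while Foxa2 (-0.22) and Mesp1 (-0.14) were lowest. With dox, Krt8 differed by 0.44 in the shRNA1 line, by 0.71 in the shRNA2 line and by 0.58 in the scrambled line. Of the stem cell markers, 0 of 10 passed, with Klf4 highest at 0.23 (SE 0.09, adjusted p = 0.565) and Esrrb at 0.02, and with Tdgf1 (-0.15) and Fgf4 (-0.12) lowest. Of the feeder markers, Lox (0.38, SE 0.22) and Col5a2 (0.37, SE 0.14) were highest and Fap (-0.07) and Acta2 (0.07) lowest, and 0 of 20 passed.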
